A study of Rattus norvegicus with 9 samples.

Results

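Receptor subunit genes of the neurotransmitters glutamate, GABA, glycine, acetylcholine and ATP were followed in the vestibular epithelium of rats that drank 3,3'-iminodipropionitrile (IDPN), a nitrile toxic to the sensory hair cells. The genes were chosen by symbol, as protein-coding genes whose symbol begins with Gria, Grin, Grik, Grm, Gabr, Chrn, P2rx or Glra, goes on with letters or none, and then has a digit. Of the 32883 genes in the table, 62 matched, and the 49 with at least 10 counts over the 9 libraries were kept. They comprised 4 AMPA, 5 kainate, 7 NMDA and 5 metabotropic glutamate receptor genes, 9 GABA-A, 2 glycine, 10 nicotinic acetylcholine and 7 P2X (ATP-gated) receptor genes. Of the 13 matches left out, 9 had no count in any library and 4 had 1 to 3 counts. Male Long-Evans rats received 20 mM IDPN in the drinking water for 3 weeks (IDPN3w) or 7 weeks (IDPN7w), or none (Control), and each of the 3 groups had 3 libraries. The same controls served both exposures. According to the study they were taken at each time point, but the labels do not say which control belongs to which, and no age is given for these rats. Each library held the pooled tissue of 1 rat, that is 6 cristae and 2 utricles, so the organs cannot be told apart.

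Vestibular hair cells signal head movement by releasing glutamate at ribbon synapses onto afferent nerve endings, which carry AMPA receptors, and type I hair cells are enclosed by a calyx-shaped ending of this kind. Efferent fibres from the brainstem release acetylcholine onto type II hair cells and afferent endings. On type II hair cells, the nicotinic receptor built from the products of Chrna9 and Chrna10 acts together with calcium-activated potassium channels. ATP-gated P2X channels are found in sensory, supporting and neural cells of the inner ear, and GABA-A and glycine receptors are chloride channels best known from inhibitory synapses of the central nervous system.

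Library totals were 38023198, 32251682 and 38044824 counts in control replicates 1, 2 and 3, 37640956, 31100118 and 32696268 in IDPN3w, and 46007687, 46018385 and 37275081 in IDPN7w. The unit used here is CPM, the count of a gene per M (mega) counts of its library, after library sizes were scaled by the TMM method. A count of 3 in a library, taken as the smallest visible level, corresponds to 0.0611 to 0.101 CPM. This floor covers counting error only, since the PCR-amplified reads carried no molecular identifiers. CPM is not divided by transcript length, and tests therefore compared samples and not genes. Where genes of a family or list are ranked, or given a share of its sum, this concerns counts and not numbers of transcripts. The replicates are different rats, and their numbers only name them.

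Some libraries showed fewer genes than others, unevenly over the groups (1 of 3 control, 2 of 3 IDPN3w and 0 of 3 IDPN7w libraries). When all were brought to the same depth, control replicate 3 and IDPN3w replicates 1 and 2 had 15464, 15498 and 15387 genes detected, while the other 6 libraries had 16834 to 17312. The receptor genes followed the same division. In these 3 libraries 19, 17 and 17 of the 49 genes had no count, against 4 to 6 genes in each of the others. Only 20 of the 49 genes reached 3 counts in every library. Values within each set of libraries are therefore given beside the main results, as differences between means of log2(CPM + 2), a setting chosen after seeing the data. The added 2 CPM makes these differences smaller, most of all for genes of low CPM. Their size can therefore not be set against that of the log2 fold changes from the test described below. All IDPN7w libraries belong to the larger set, so that IDPN7w was compared there with control replicates 1 and 2.

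Genes were tested in a fit of all 9 libraries with the quasi-likelihood test of edgeR, which models the spread of counts between replicates of a group, and p-values were adjusted over all 15517 genes tested by the Benjamini-Hochberg (BH) method. A gene counted as called when its adjusted p was below 0.05 and it differed more than 1.5-fold, and where no tool or setting is named the call is that of edgeR with all 9 libraries. Of the 49 receptor genes, 37 passed the filter on low counts and were tested, and 12 were not (Gabra2, Gabrb1, Gabrb2, Gabrg1, Gabrr1, Gabrr3, Glra4, Grm6, Chrna4, Chrnb3, Grin2c and Grin3a). A gene can pass this filter through the group where it is higher, so the counts that follow are a description. With 3 rats in each of 2 groups, the smallest two-sided p that exact permutation allows is 0.1, and it was not used.

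After 3 weeks of IDPN, 2 receptor genes were lower than in control, the AMPA receptor genes Gria4 and Gria2, and none was higher. These are 5.41% of the 37 genes tested, where 1.21% of all genes tested were called lower and 0.438% higher. Over the 37 genes, 24 log2 fold changes were below 0 and 13 above, with a median of -0.28 against -0.000467 over all genes. Control and IDPN3w rats did not overlap in 8 of the 37 genes (21.6%), close to the 19.6% of all genes.

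After 7 weeks, 5 receptor genes were lower than in control (Gria4, Gria2, Glra3, Grm3 and Grik2) and none was higher. This is 13.5% of the 37 genes, beside 3.13% called lower and 2.00% called higher among all genes tested. Log2 fold changes were below 0 in 23 genes and above 0 in 14, with a median of -0.63 against 0.00970 over all genes. The size of this median, and of that at 3 weeks, moved with the count filter and with single libraries, as given in the last section. Groups did not overlap in 13 genes (35.1%), about as often as among all genes (34.3%). By edgeR with all 9 libraries, 4 of 18 glutamate receptor genes tested were called and the only glycine receptor gene tested, while 0 of 8 nicotinic, 0 of 7 P2X and 0 of 3 GABA-A genes were. An unadjusted p under 0.05 was reached by 7, 1, 1, 2 and 0 genes in the same order, and DESeq2 called 1 nicotinic, 1 P2X and 0 GABA-A genes. Both comparisons use the same controls and are not independent of each other.

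**Figure D1:**
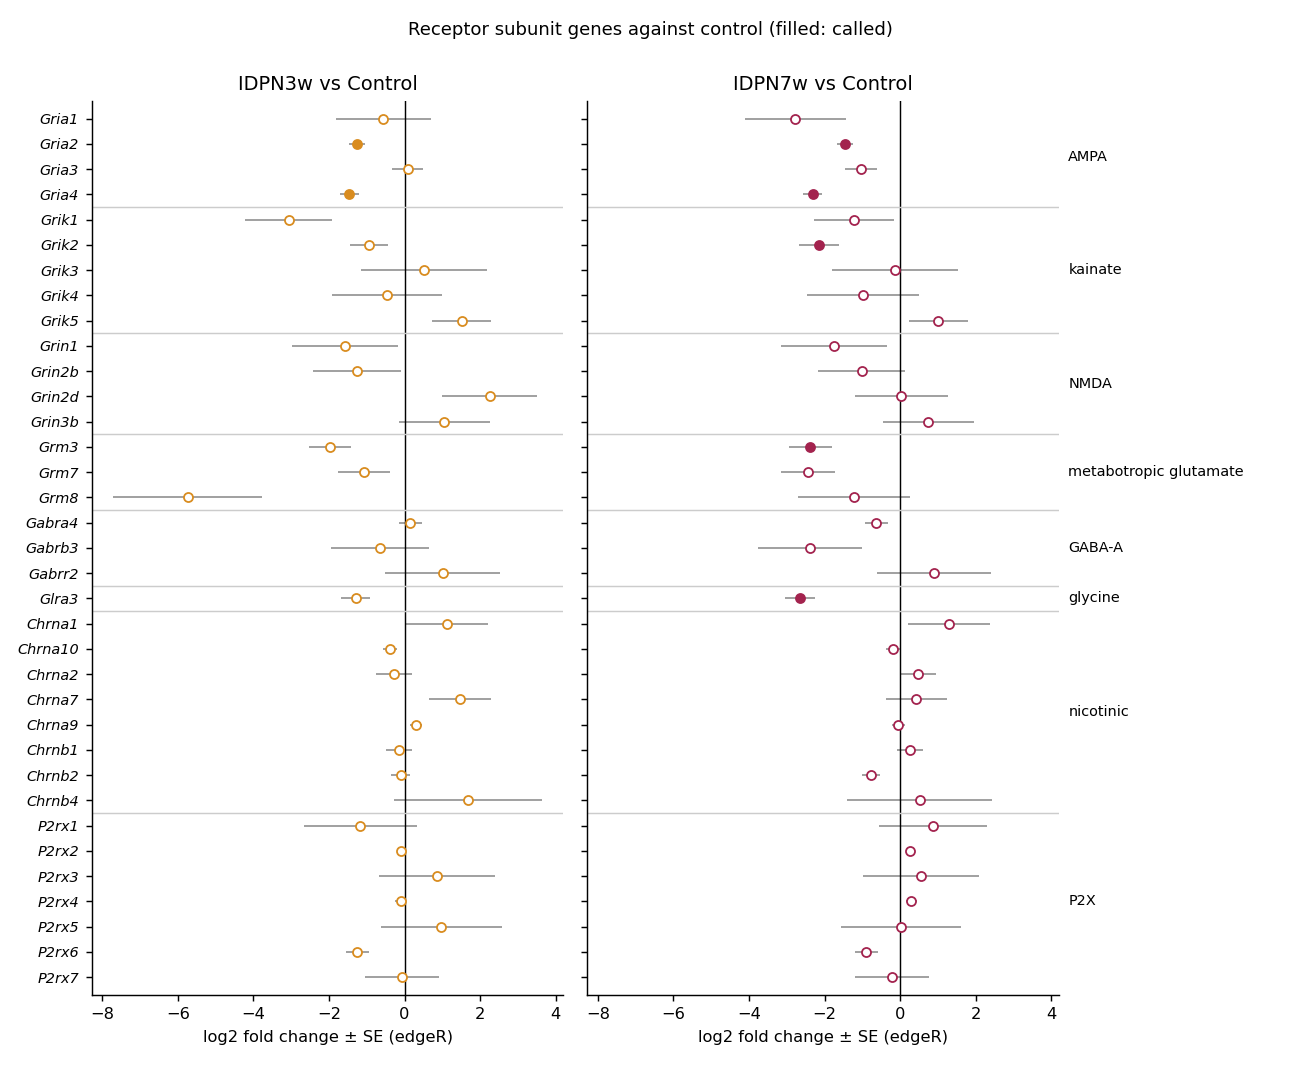
Log2 fold change against control with its standard error (SE) from edgeR for 35 of the 37 receptor genes tested, at 3 weeks (left) and 7 weeks (right), grouped by family. Filled points are the called genes, Gria2 and Gria4 at 3 weeks and Gria2, Gria4, Grik2, Grm3 and Glra3 at 7 weeks, and Grin2a, with no count in the IDPN7w libraries, is among the genes left out.

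DESeq2, run with the same thresholds, called more receptor genes. At 3 weeks it called 7 lower (Gabrb1, Glra3, Gria2, Gria4, Grik1, Grm3 and P2rx6), with 3.37% of all genes called lower. At 7 weeks it called 8 lower (the 5 genes called by edgeR, with Chrnb2, Grm7 and P2rx6), where the share over all genes was 5.42%. It called none higher. Without the 3 libraries with fewer detected genes, a setting chosen after seeing the data, edgeR called 13 of 45 receptor genes tested lower at 7 weeks (those 5 and 8 more, among them Chrnb2, Grm7 and P2rx6), and 5.44% of all genes. The same setting gave 3 at 3 weeks (Glra3, Gria4 and Grm7), with 1.05% of all genes, where IDPN3w is left with 1 library that is assumed to vary like the others.

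The 5 genes called at 7 weeks were looked up in the RefSeq promoter windows of the rat build GRCr8, which is not the build used for counting (Rnor6.0), to show the sequence before the start of genes called together. By symbol, 35 of the 49 receptor genes had an entry. Among the called genes Gria4, Glra3 and Grik2 had an entry, and Gria2 and Grm3 had none. The 250 bases upstream of the start are given for these 3 genes and for Chrna9, which was not called. All 4 lie on the minus strand, and the sequences read 5′ to 3′ along the gene. The Gria4 window is chr8:10319882-10320131, the Glra3 window chr16:39857007-39857256, the Grik2 window chr20:54415284-54415533 and the Chrna9 window chr14:42595670-42595919. The starts used for Gria4 and Glra3 lie 140 and 326 bases inside the gene models of the same build. Capitals mark the letters CCAAT and GGGCGG on either strand.
Gria4: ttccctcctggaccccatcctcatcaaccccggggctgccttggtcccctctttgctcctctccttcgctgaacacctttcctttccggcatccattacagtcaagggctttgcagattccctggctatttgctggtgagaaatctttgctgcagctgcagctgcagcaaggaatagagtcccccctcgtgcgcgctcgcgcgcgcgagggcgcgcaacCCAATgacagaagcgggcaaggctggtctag
Glra3: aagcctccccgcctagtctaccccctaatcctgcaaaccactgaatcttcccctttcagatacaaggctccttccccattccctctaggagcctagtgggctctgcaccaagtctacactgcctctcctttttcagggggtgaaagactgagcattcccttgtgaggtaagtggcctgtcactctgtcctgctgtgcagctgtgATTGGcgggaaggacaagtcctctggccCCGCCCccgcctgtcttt
Grik2: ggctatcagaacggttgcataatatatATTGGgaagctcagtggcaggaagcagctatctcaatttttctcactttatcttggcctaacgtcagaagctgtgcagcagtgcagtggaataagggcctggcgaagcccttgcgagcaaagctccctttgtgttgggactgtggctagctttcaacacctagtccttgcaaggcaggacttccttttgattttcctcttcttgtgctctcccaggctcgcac
Chrna9: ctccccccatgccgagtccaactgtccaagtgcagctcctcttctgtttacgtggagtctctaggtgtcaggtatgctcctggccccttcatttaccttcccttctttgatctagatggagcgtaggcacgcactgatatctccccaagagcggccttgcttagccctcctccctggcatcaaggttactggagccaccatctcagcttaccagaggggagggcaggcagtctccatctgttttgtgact
The letters CCAAT, searched on both strands, occurred 1 time in each of the Gria4, Glra3 and Grik2 windows and not in that of Chrna9, and 34.0% of all 33469 windows of this length hold them. GGGCGG occurred 1 time, in the Glra3 window, and is held by 30.5% of all windows. No window of the 4 had TATAAA (12.9% of all windows). TGACG occurred 1 time, in the Grik2 window (18.2% of all windows), and CANNTG occurred 2 times in the Gria4 window, 1 time in Glra3, 3 times in Chrna9 and not in Grik2 (65.5% of all windows). The share of G and C was 59.6%, 56.4%, 49.6% and 55.2% in the windows of Gria4, Glra3, Grik2 and Chrna9, against a median of 51.2%. The Gria4 window had 14 CG dinucleotides and the others 4 or 5, where the median of all windows was 5. These matches describe the letters and were not tested as binding sites. They were not counted apart in the other receptor genes with an entry, so the 4 windows give no contrast of called and uncalled genes. The entry of Chrna10 starts 1890 bases inside its gene model and is not shown.

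Among AMPA receptor genes, which encode the channels of fast glutamate transmission, Gria4 (ENSRNOG00000006957) had 123, 115 and 114 CPM in control, 61.4, 29.0 and 37.2 CPM in IDPN3w and 20.1, 23.3 and 27.3 CPM in IDPN7w. The 3 groups did not overlap, with every control above every IDPN3w rat and every IDPN3w rat above every IDPN7w rat. The gene fell 2.75-fold at 3 weeks (log2 fold change -1.46, SE 0.242, edgeR BH-adjusted p = 0.0162) and 4.97-fold at 7 weeks (-2.31, SE 0.249, adjusted p = 0.000621). In these bulk samples, fewer cells of a type and less RNA per cell cannot be told apart, here and for every gene that follows. Nor was it determined which cells the transcripts come from. The pooled tissue was cristae and utricles, and the vestibular ganglion of the afferent neurons was not part of it. The difference at 3 weeks was -1.39 among libraries with fewer detected genes, and among the others it was -1.62 at 3 weeks and -2.25 at 7 weeks.

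Gria2 (ENSRNOG00000054204) encodes the subunit that, in its edited form, keeps AMPA receptors from passing calcium. It had 79.0, 82.0 and 83.8 CPM in control, 35.9, 26.1 and 40.2 CPM in IDPN3w and 20.9, 33.1 and 34.8 CPM in IDPN7w. All 6 exposed rats lay below the lowest control, and the exposed groups overlapped each other. The change was -1.26 on the log2 scale at 3 weeks (SE 0.213, edgeR BH-adjusted p = 0.0175) and -1.46 at 7 weeks (SE 0.214, adjusted p = 0.00339). Within the sets of libraries it was -1.39 (fewer detected genes) and -0.97 (others) at 3 weeks, and -1.42 at 7 weeks. At 3 weeks both calls depended on single controls. Without control replicate 1 the adjusted p of Gria4 was 0.0701 (log2 fold change -1.43), and without control replicate 2 it was 0.0643 (-1.48). That of Gria2 was 0.0657, 0.0718 and 0.0534 without control replicates 1, 2 and 3 (-1.28, -1.26 and -1.24), and 0.147 without the 3 libraries with fewer detected genes (-1.001). At 7 weeks both genes were called with each library left out.

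The other AMPA receptor genes were not called by edgeR with all 9 libraries or by DESeq2. Gria3 had 20.8, 25.1 and 8.16 CPM in control, 29.3, 15.0 and 12.9 CPM in IDPN3w and 8.04, 8.86 and 9.49 CPM in IDPN7w, and control replicate 3 lay within the range of IDPN7w. Its log2 fold change was 0.08 at 3 weeks (edgeR BH-adjusted p = 0.957) and -1.03 at 7 weeks (adjusted p = 0.207). At 3 weeks the values within sets were of opposite sign, 1.19 among libraries with fewer detected genes and -0.74 among the others. Without the 3 libraries with fewer detected genes, edgeR called Gria3 lower at 7 weeks. Gria1 was at or below 3.13 CPM in all libraries.

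**Figure D2:**
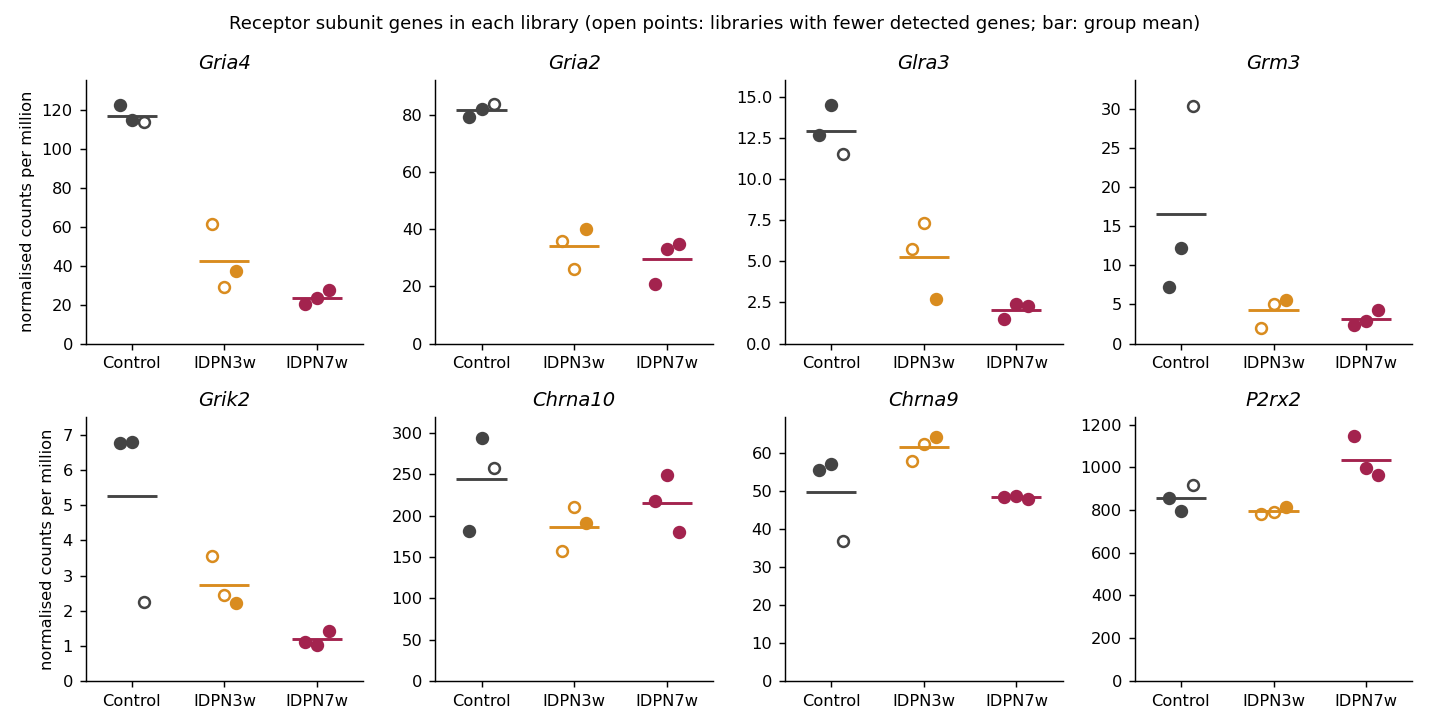
Normalised counts of 8 receptor genes (CPM) in each of the 9 libraries, with the group mean as a bar and the libraries with fewer detected genes as open points. Gria4 and Gria2 were lower in all 6 exposed rats than in any control, while Chrna10 and P2rx2 overlapped between control and IDPN3w. P2rx2 was higher in every IDPN7w rat than in any control, and Chrna9 in every IDPN3w rat, both without a call.

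Kainate receptors modulate release and excitability at glutamate synapses. Grik2 (ENSRNOG00000000368), the gene of this family with the highest mean CPM over all libraries though not in IDPN7w, had 6.77, 6.80 and 2.25 CPM in control, 3.54, 2.46 and 2.21 CPM in IDPN3w and 1.12, 1.03 and 1.42 CPM in IDPN7w. Control replicate 3 stood well below the other controls and within the range of IDPN3w, and all IDPN7w rats lay below all others. The value at 3 weeks was -0.94 on the log2 scale (SE 0.508, edgeR BH-adjusted p = 0.406), and at 7 weeks the gene fell by 2.15 (SE 0.526, adjusted p = 0.0397). Among libraries with fewer detected genes the value at 3 weeks was 0.23, and among the others it was -1.06 at 3 weeks and -1.46 at 7 weeks. The call at 7 weeks was lost when control replicate 1 or 2 or IDPN7w replicate 1, 2 or 3 was left out, with adjusted p of 0.154, 0.1498, 0.155, 0.147 and 0.113 and log2 fold changes of -1.93, -1.92, -2.11, -2.05 and -2.29 in that order.

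Of the other kainate genes, Grik1 had 1.91, 1.47 and 4.81 CPM in control, 0.409, 0 and 0.553 CPM in IDPN3w and 2.02, 0.822 and 0.683 CPM in IDPN7w, so that IDPN3w lay below control and IDPN7w overlapped it. Its log2 fold change was -3.07 at 3 weeks (SE 1.15, edgeR BH-adjusted p = 0.230) and -1.22 at 7 weeks (adjusted p = 0.620). Grik5 had 1.24, 1.10 and 0.422 CPM in control, 5.37, 1.68 and 0.830 CPM in IDPN3w and 1.41, 2.47 and 1.70 CPM in IDPN7w, with IDPN7w above control and IDPN3w overlapping it (1.51 with adjusted p 0.388 at 3 weeks, 1.01 with 0.556 at 7 weeks). At 3 weeks its sign differed between sets of libraries (1.10 and -0.16). Grik3 and Grik4 had no count in control replicate 3 and were not called.

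NMDA receptors need both glutamate and depolarisation to open. With all 9 libraries none of the 5 NMDA receptor genes tested was called by edgeR or DESeq2, and an unadjusted p under 0.05 in edgeR was reached by 0 at 3 weeks and 1 at 7 weeks. Grin2b, the gene of this family with the highest mean CPM, had 3.91, 9.24 and 4.47 CPM in control, 0, 3.03 and 4.40 CPM in IDPN3w and 1.04, 2.84 and 4.81 CPM in IDPN7w, and the groups overlapped (log2 fold change -1.25 with edgeR BH-adjusted p 0.664 at 3 weeks, -1.02 with 0.721 at 7 weeks). Grin1, the subunit that every NMDA receptor contains, had 4.37, 3.73 and 0 CPM in control and 0.733, 0.740 and 0.911 CPM in IDPN7w. Control replicate 3 was thus below all IDPN7w rats and the other controls above them. Grin2a had 0.404, 1.16 and 0 CPM in control, 0, 0 and 0.338 CPM in IDPN3w and no count in IDPN7w. Against the 52 counts over the control libraries, a floor of 3 counts over the IDPN7w libraries makes it at least 22.8-fold lower. Of these counts 37 are in control replicate 2, and without it the bound is 9.45-fold, while without control replicate 3, which has 0, it is 34.5-fold. With all 9 libraries the test was not passed (adjusted p = 0.202). Without the 3 libraries with fewer detected genes, edgeR called Grin2a (adjusted p = 0.0213) and Grin1 lower at 7 weeks.

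Metabotropic glutamate receptors act through G proteins. Grm3 (ENSRNOG00000005519) had 7.28, 12.2 and 30.4 CPM in control, 2.04, 5.08 and 5.59 CPM in IDPN3w and 2.42, 2.92 and 4.25 CPM in IDPN7w. Control replicate 3 was far above the other controls, and all 6 exposed rats lay below the lowest control. On the log2 scale the value was -1.97 at 3 weeks (SE 0.556, edgeR BH-adjusted p = 0.114) and -2.38 at 7 weeks (SE 0.564, adjusted p = 0.0350), where the gene was called. Without control replicate 3 it was -1.60 at 7 weeks (adjusted p = 0.123). The call was also lost without control replicate 2 (-2.56, adjusted p = 0.0643) and without IDPN7w replicate 1, 2 or 3 (-2.21, -2.32 and -2.64, adjusted p = 0.154, 0.128 and 0.0827). Within sets, the values were -2.60 (fewer detected genes) and -0.60 (others) at 3 weeks, and -1.16 at 7 weeks.

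Grm7, a presynaptic receptor at many glutamate synapses, had 6.39, 6.04 and 9.002 CPM in control, 5.78, 3.87 and 0.553 CPM in IDPN3w and 0.998, 1.05 and 1.90 CPM in IDPN7w. Every control lay above every exposed rat, and IDPN3w replicate 3 was the lowest library of all. Its log2 fold change was -1.07 at 3 weeks (edgeR BH-adjusted p = 0.488) and -2.44 at 7 weeks (SE 0.711, adjusted p = 0.0799), and it was called at 7 weeks without IDPN3w replicate 3 (-2.44, adjusted p = 0.0111), and in the fit of the 2 groups alone (-2.45, adjusted p = 0.00588). For Grm8, with 1.05, 1.10 and 0 CPM in control and 0, 0 and 0.0307 CPM in IDPN3w, the adjusted p was 0.189 at 3 weeks and 0.743 at 7 weeks. All 4 metabotropic genes tested had negative log2 fold changes against control at both times.

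Partner genes of glutamate signalling were looked up in 3 lists. Of 15 genes for auxiliary subunits of AMPA and kainate receptors, 11 were tested, with 1 called lower at 3 weeks and 2 at 7 weeks, none called higher, 1 and 3 called lower by DESeq2, and medians of -0.66 and 0.42. Neto1, an auxiliary subunit of kainate receptors, had 9.95, 10.1 and 5.57 CPM in control, 0.981, 2.56 and 1.32 CPM in IDPN3w and 2.81, 1.38 and 1.95 CPM in IDPN7w, and all 6 exposed rats lay below all controls. It fell by 2.40 at 3 weeks and by 2.06 at 7 weeks on the log2 scale (edgeR BH-adjusted p = 0.0423 and 0.0359). Nptx1, whose product gathers AMPA receptors at synapses, had 52.4, 69.3 and 67.5 CPM in control and 30.3, 41.2 and 40.7 CPM in IDPN7w and fell by 0.75 (adjusted p = 0.0441).

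Of 17 postsynaptic scaffold genes, 14 were tested and edgeR called 1, at both times, while DESeq2 called 2, Dlg2 and Shank2, at both times (medians of -0.08 and -0.36). Shank2 had 85.8, 86.6 and 71.8 CPM in control, 28.1, 32.3 and 21.7 CPM in IDPN3w and 25.6, 30.2 and 27.6 CPM in IDPN7w. The exposed groups overlapped each other and lay below control (log2 fold changes of -1.57 at 3 weeks, edgeR BH-adjusted p = 0.00196, and -1.55 at 7 weeks, 0.000621). Of 11 genes for glutamate transport and turnover, 8 were tested. None was called by edgeR at 3 weeks, where 3 had an unadjusted p under 0.05 and DESeq2 called 1 lower and 1 higher, and 2 were called lower and 1 higher at 7 weeks (medians of -0.21 and -0.18). The vesicular transporter Slc17a8, which loads glutamate into hair cell vesicles, had 69.5, 63.4 and 68.4 CPM in control, 14.5, 43.7 and 15.3 CPM in IDPN3w and 14.2, 9.70 and 16.8 CPM in IDPN7w. Of the exposed rats IDPN3w replicate 2 was nearest to control, and the log2 fold change was -1.46 at 3 weeks (adjusted p = 0.101) and -2.31 at 7 weeks (adjusted p = 0.00840). The uptake carrier Slc1a1 moved the other way, from 4.58, 4.10 and 5.04 CPM in control to 12.3, 17.8 and 13.1 CPM in IDPN7w, a log2 fold change of 1.66 (adjusted p = 0.00387).

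**Figure D3:**
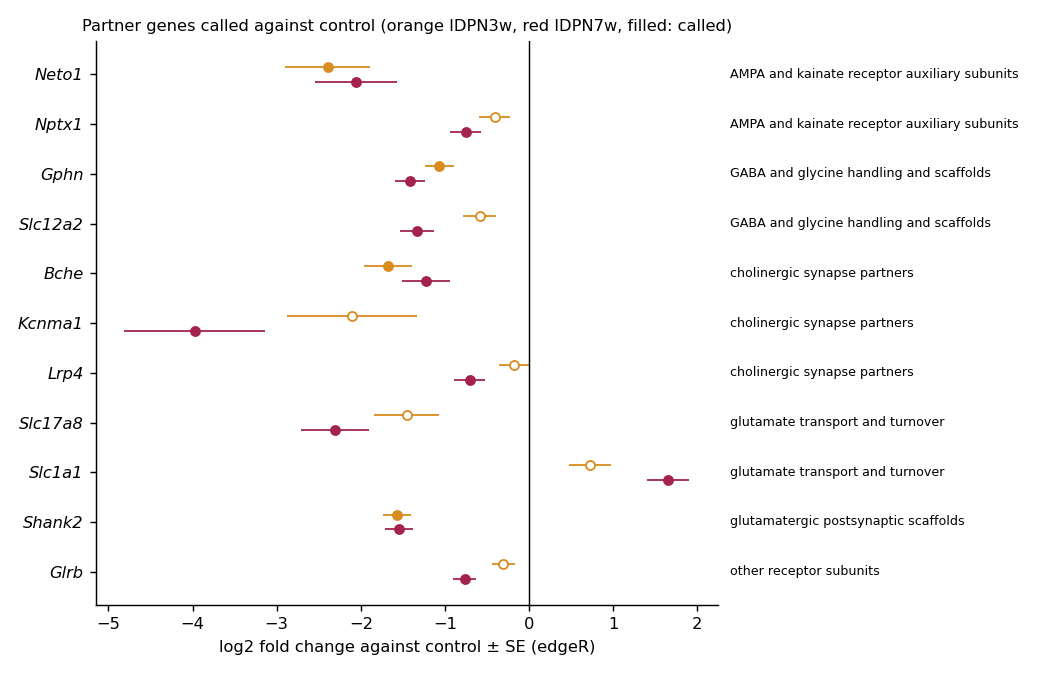
Log2 fold change against control with its SE from edgeR for 11 partner genes called in either comparison, with the list of each at the right, IDPN3w in orange and IDPN7w in red. Filled points are called, 10 of the 11 genes lay below 0, and Slc1a1, at 1.66 after 7 weeks, lay above.

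The glycine receptor gene Glra3 (ENSRNOG00000049792), which encodes an alpha subunit, had 12.7, 14.5 and 11.5 CPM in control, 5.75, 7.30 and 2.74 CPM in IDPN3w and 1.47, 2.43 and 2.25 CPM in IDPN7w. The groups did not overlap, with control highest and IDPN7w lowest. At 3 weeks the value was -1.29 on the log2 scale (SE 0.379, edgeR BH-adjusted p = 0.128), and at 7 weeks the gene fell 6.28-fold (-2.65, SE 0.398, adjusted p = 0.00387), which was called with each library left out. Within sets it was -0.67 (fewer detected genes) and -1.71 (others) at 3 weeks and -1.95 at 7 weeks. Glra4, the other glycine receptor gene kept, was at or below 0.125 CPM. A list of 11 subunits and related receptors outside the symbol rule had 3 genes tested and, in edgeR, none called at 3 weeks (1 with an unadjusted p under 0.05, 0 by DESeq2) and 1 at 7 weeks (medians of -0.30 and -0.76). This was Glrb, the beta subunit that joins the alpha subunits, with 165, 161 and 203 CPM in control, 132, 140 and 157 CPM in IDPN3w and 94.9, 94.9 and 122 CPM in IDPN7w. It fell by 0.76 at 7 weeks (adjusted p = 0.00892), and at 3 weeks its value was -0.30 (adjusted p = 0.308).

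Of the 9 GABA-A receptor genes, 3 were tested and none was called by edgeR with all 9 libraries against control at 3 or 7 weeks, and none had an unadjusted p under 0.05. DESeq2 called 1 at 3 weeks (Gabrb1) and 0 at 7 weeks, and edgeR called Gabrb1 lower at 7 weeks without the 3 libraries with fewer detected genes. Gabra4 held 84.2% of the summed CPM of this family, with 16.0, 7.48 and 9.62 CPM in control, 13.7, 11.0 and 12.1 CPM in IDPN3w and 6.37, 9.04 and 6.02 CPM in IDPN7w. Control overlapped both exposed groups (log2 fold change 0.15 with edgeR BH-adjusted p 0.864 at 3 weeks, -0.63 with 0.310 at 7 weeks). The other 8 genes were at or below 3.63 CPM, a level that Gabrb1 had in control replicate 2.

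Of 16 genes for handling and scaffolding of GABA and glycine receptors, 13 were tested, with 1 called lower by edgeR at 3 weeks and 2 at 7 weeks. DESeq2 called the same genes lower, and at 3 weeks it called Abat, which breaks down GABA, higher (edgeR log2 fold change 0.72, BH-adjusted p = 0.1303, no overlap). The medians were -0.04 and -0.51. Gphn encodes gephyrin, the scaffold that anchors glycine and GABA-A receptors. It had 67.3, 65.2 and 52.8 CPM in control, 31.6, 23.0 and 33.8 CPM in IDPN3w and 20.9, 24.3 and 24.4 CPM in IDPN7w, and all exposed rats lay below all controls. The decrease was 1.07 at 3 weeks and 1.41 at 7 weeks on the log2 scale (edgeR BH-adjusted p = 0.0154 and 0.00137). The chloride importer Slc12a2, which also serves ion transport outside synapses, had 770, 695 and 671 CPM in control, 500, 498 and 426 CPM in IDPN3w and 193, 378 and 277 CPM in IDPN7w, without overlap between groups. It fell by 1.33 at 7 weeks (adjusted p = 0.00387), and at 3 weeks its value was -0.59 (adjusted p = 0.181).

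The efferent nicotinic receptor genes were not called. Chrna10 (ENSRNOG00000020293) had 181, 294 and 257 CPM in control, 157, 210 and 192 CPM in IDPN3w and 218, 249 and 180 CPM in IDPN7w, and the 3 groups overlapped. Its log2 fold change was -0.39 at 3 weeks (SE 0.187, edgeR BH-adjusted p = 0.348) and -0.18 at 7 weeks (SE 0.187, adjusted p = 0.688). Within sets it was -0.50 (fewer detected genes) and -0.27 (others) at 3 weeks and -0.11 at 7 weeks. Chrna9 (ENSRNOG00000002484) had 55.5, 57.3 and 36.9 CPM in control, 58.1, 62.6 and 64.3 CPM in IDPN3w and 48.6, 48.7 and 48.0 CPM in IDPN7w. Every IDPN3w rat lay above the highest control, and the IDPN7w rats lay within the range of control. For this gene the value was 0.31 at 3 weeks (SE 0.162, adjusted p = 0.398) and -0.04 at 7 weeks (SE 0.161, adjusted p = 0.933), and within sets 0.68, 0.18 and -0.21 in the same order. Neither gene was called in any alternative run. A p that misses the threshold does not show that the levels were the same.

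Chrnb2, a subunit of neuronal nicotinic receptors, had 27.2, 26.2 and 15.9 CPM in control, 25.9, 22.2 and 16.2 CPM in IDPN3w and 14.01, 13.5 and 13.04 CPM in IDPN7w. All IDPN7w rats lay below all others, and control replicate 3 stood apart from the other controls. At 7 weeks the value was -0.77 on the log2 scale (SE 0.245, edgeR BH-adjusted p = 0.106), and without control replicate 3 the gene was called (-0.98, adjusted p = 0.0358). Chrnb1, a subunit of the muscle receptor, had 8.71, 9.46 and 11.2 CPM in control and overlapped between groups. The other nicotinic genes were at or below 5.89 CPM.

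Of 15 partner genes of cholinergic synapses, 12 were tested, with 1 called lower at 3 weeks and 3 at 7 weeks, and none higher, while DESeq2 called 2 and 3 lower (medians of -0.50 and -0.71). Kcnma1 encodes the large-conductance calcium-activated potassium channel and had 6.93, 8.30 and 3.69 CPM in control, 3.32, 0.438 and 0.615 CPM in IDPN3w and 0.285, 0.432 and 0.481 CPM in IDPN7w, with all exposed rats below all controls. It fell by 3.97 at 7 weeks on the log2 scale (edgeR BH-adjusted p = 0.0206), and at 3 weeks its value was -2.10 (adjusted p = 0.217). Bche, which breaks down choline esters, had 22.3, 25.6 and 18.8 CPM in control, 5.61, 7.03 and 8.27 CPM in IDPN3w and 8.11, 7.07 and 13.4 CPM in IDPN7w, again with all exposed rats below all controls (log2 fold change -1.67 with adjusted p 0.0185 at 3 weeks, -1.22 with 0.0306 at 7 weeks). Lrp4, a component of the machinery that gathers nicotinic receptors at nerve-muscle junctions, had 45.8, 44.1 and 53.7 CPM in control and 25.5, 33.2 and 29.2 CPM in IDPN7w and fell by 0.71 (adjusted p = 0.0478). Kcnn2, the small-conductance channel that partners the efferent receptor, had 0.782, 0.595 and 0.478 CPM in control, no count in the IDPN3w libraries and 0.143, 0.493 and 0.405 CPM in IDPN7w, and was not called by edgeR (adjusted p = 0.0606 at 3 weeks). DESeq2 called it lower at 3 weeks, and higher in IDPN7w than in IDPN3w. Of 5 muscarinic receptor genes, 3 were tested and none was called by edgeR or DESeq2 or had an unadjusted p under 0.05 (medians of 0.22 and 0.55).

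Among the ATP-gated P2X receptors, P2rx2 (ENSRNOG00000037456), which held 88.6% of the summed CPM of the family, had 857, 794 and 916 CPM in control, 782, 790 and 814 CPM in IDPN3w and 1147, 997 and 963 CPM in IDPN7w. IDPN7w rats lay above all others, while IDPN3w overlapped control at its lower end. The value was -0.11 on the log2 scale at 3 weeks (SE 0.0890, edgeR BH-adjusted p = 0.625) and 0.28 at 7 weeks (SE 0.0891, adjusted p = 0.111), and neither passed the threshold. Within sets it was -0.22 (fewer detected genes) and -0.02 (others) at 3 weeks, and 0.32 at 7 weeks. P2rx4 had 109, 96.2 and 90.0 CPM in control, 72.1, 94.5 and 109 CPM in IDPN3w and 125, 119 and 120 CPM in IDPN7w, and again the IDPN7w rats lay above all others, without a call (0.30 at 7 weeks, adjusted p = 0.293).

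P2rx6, a subunit that mostly works joined to other P2X subunits, had 9.14, 12.9 and 10.4 CPM in control, 4.47, 3.30 and 5.87 CPM in IDPN3w and 4.97, 7.22 and 5.24 CPM in IDPN7w. All exposed rats lay below all controls, with log2 fold changes of -1.25 at 3 weeks (SE 0.310, edgeR BH-adjusted p = 0.0796) and -0.90 at 7 weeks (SE 0.306, adjusted p = 0.132), so that edgeR did not call it. P2rx1, P2rx3, P2rx5 and P2rx7 were at or below 3.47 CPM. Of 12 P2Y and adenosine receptor genes, 9 were tested and none was called by edgeR, 0 and 3 had an unadjusted p under 0.05 at 3 and 7 weeks, and DESeq2 called 0 and 1 (medians of -0.19 and 0.06). The G protein-coupled P2ry2, the gene with the highest mean CPM in that list, had 90.6, 108 and 95.7 CPM in control and 62.4, 78.8 and 59.1 CPM in IDPN7w, with a log2 fold change of -0.55 (adjusted p = 0.0501). Of 13 genes for the release and breakdown of ATP, 12 were tested, none was called by edgeR or DESeq2, and 1 had an unadjusted p under 0.05 at each time (medians of -0.09 and -0.07).

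Summed over the family, the CPM of the AMPA receptor genes had means of 219 ± 9.55, 97.0 ± 28.8 and 62.2 ± 11.3 in control, IDPN3w and IDPN7w (SD, n = 3), and the groups did not overlap. The glycine receptor genes had 12.9 ± 1.54, 5.30 ± 2.26 and 2.08 ± 0.516, and the metabotropic glutamate genes 25.8 ± 12.1, 7.98 ± 0.930 and 5.30 ± 1.91. For both of these families every exposed rat lay below every control. Sums of the kainate genes were 11.5 ± 3.54, 7.97 ± 2.17 and 5.75 ± 0.372, and of the NMDA genes 10.3 ± 5.68, 7.63 ± 2.60 and 5.53 ± 2.61. In the NMDA sums the SD of the controls was larger than the differences between means. The nicotinic sums were 331 ± 57.8, 286 ± 21.6 and 296 ± 35.3, differences within the SD of the controls. For P2X genes they were 969 ± 56.1, 896 ± 37.1 and 1167 ± 98.6, and the IDPN7w rats were the highest. GABA-A sums were 14.1 ± 4.51, 13.6 ± 0.404 and 8.44 ± 1.42. Over all libraries, the most abundant gene held 36.5% of the kainate sum (Grik2), 47.9% of the NMDA sum (Grin2b) and 48.5% of the AMPA sum (Gria4), and more in the other families. In IDPN7w the order differed, with mean CPM of 29.6 for Gria2 against 23.6 for Gria4, and 1.86 for Grik5 against 1.19 for Grik2. The sums were not tested.

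**Figure D4:**
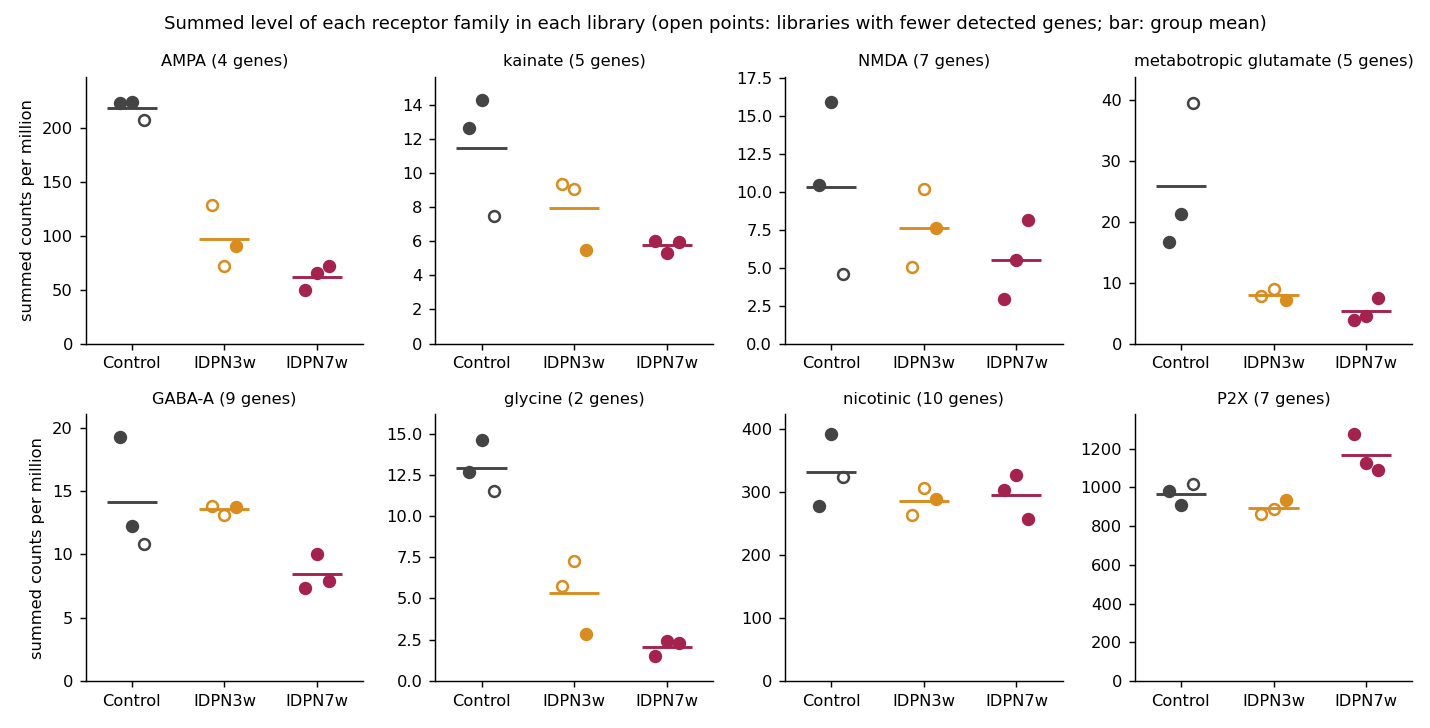
Summed CPM of the receptor genes of each family in each library, with the group mean as a bar and the libraries with fewer detected genes as open points. AMPA, metabotropic glutamate and glycine receptor sums were lower in both exposed groups than in control without overlap, and nicotinic sums overlapped.

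The exposures were also compared directly. In IDPN7w against IDPN3w, 26 of the 37 receptor genes had a log2 fold change below 0 and 11 above, with a median of -0.35 against 0.00819 over all genes tested. None was called by edgeR, where 0.135% of all genes were called lower and 0.348% higher, and 9 had an unadjusted p under 0.05. DESeq2 called 2 lower, Glra3 and Gria4, and 1.84% of all genes. Groups did not overlap in 12 genes (32.4%, against 21.0% of all genes). For Gria4 the value was -0.85 (SE 0.240, edgeR BH-adjusted p = 0.177), for Glra3 -1.36 (SE 0.384, adjusted p = 0.177) and for Grik2 -1.20 (adjusted p = 0.338), while Gria2 was at -0.20 (adjusted p = 0.733). A call at 7 weeks and none at 3 weeks is therefore not a difference between the exposures that this test passed. Without IDPN3w replicate 3, Glra3 was called (-1.67, adjusted p = 0.0350).

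Markers of the cell types in this tissue were read beside these genes. The 8 hair cell markers, whose most abundant gene is Otof, summed to 1820, 1949 and 1871 CPM in control, 1278, 1312 and 1018 CPM in IDPN3w and 1146, 975 and 1129 CPM in IDPN7w. Every exposed rat lay below every control, and edgeR called 2 of the 8 lower at 3 weeks and 5 at 7 weeks. The 2 type I hair cell markers (mostly Spp1) had means of 5486, 3122 and 1599 CPM in control, IDPN3w and IDPN7w, and both were called lower at both times. The 3 type II hair cell markers (mostly Anxa4) had means of 374, 328 and 402 CPM, with Calb2 called lower at both times. The 7 supporting cell markers, led by Otog, had means of 12507, 7998 and 5879 CPM, with 1 called lower at 3 weeks and 4 at 7 weeks.

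The 8 neuron markers, led by Nefl, had means of 130, 103 and 109 CPM in control, IDPN3w and IDPN7w, with Snap25 called lower at both times and Uchl1 called higher at 7 weeks. Their log2 fold changes went both ways, with 4 below 0 and 4 above at 3 weeks (median 0.32) and 6 and 2 at 7 weeks (median -0.13). DESeq2 called 2 lower and 2 higher at 3 weeks, and 2 lower and 1 higher at 7 weeks. Of the Schwann cell markers, Mbp had 1766, 2340 and 1856 CPM in control, 1390, 1813 and 1822 CPM in IDPN3w and 485, 1141 and 1063 CPM in IDPN7w and Pmp22 had 1884, 2325 and 1724 CPM in control, 1224, 1697 and 1792 CPM in IDPN3w and 535, 1108 and 1156 CPM in IDPN7w. In both genes all IDPN7w rats lay below all others, and both fell at 7 weeks (-1.15 and -1.08, edgeR BH-adjusted p = 0.0350 and 0.0397) and were not called at 3 weeks (-0.25 and -0.33, adjusted p = 0.717 and 0.594). The 8 macrophage markers, led by Csf1r, had means of 92.5, 75.9 and 221 CPM, and all 8 had positive log2 fold changes at 7 weeks, with 1 called. Fibroblast (259, 336 and 255 CPM, Lum called lower at 7 weeks) and endothelial markers (150, 183 and 199 CPM, Cdh5 called higher at 7 weeks) had 1 call each. Melanocyte markers had means of 455, 479 and 418 CPM and no call by either tool, with 0 and 1 unadjusted p under 0.05. Skeletal muscle markers had mean sums of 0.372, 0.450 and 0.423 CPM, and of the brain markers Pcp2 was at 0 in all libraries while Gfap had 5.74, 1.13 and 5.29 CPM in control, 1.61, 0 and 11.5 CPM in IDPN3w and 30.8, 4.89 and 4.73 CPM in IDPN7w, with IDPN7w replicate 1 high and the others of its group within the range of control. The part of these cell types in the receptor results was not tested.

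**Figure D5:**
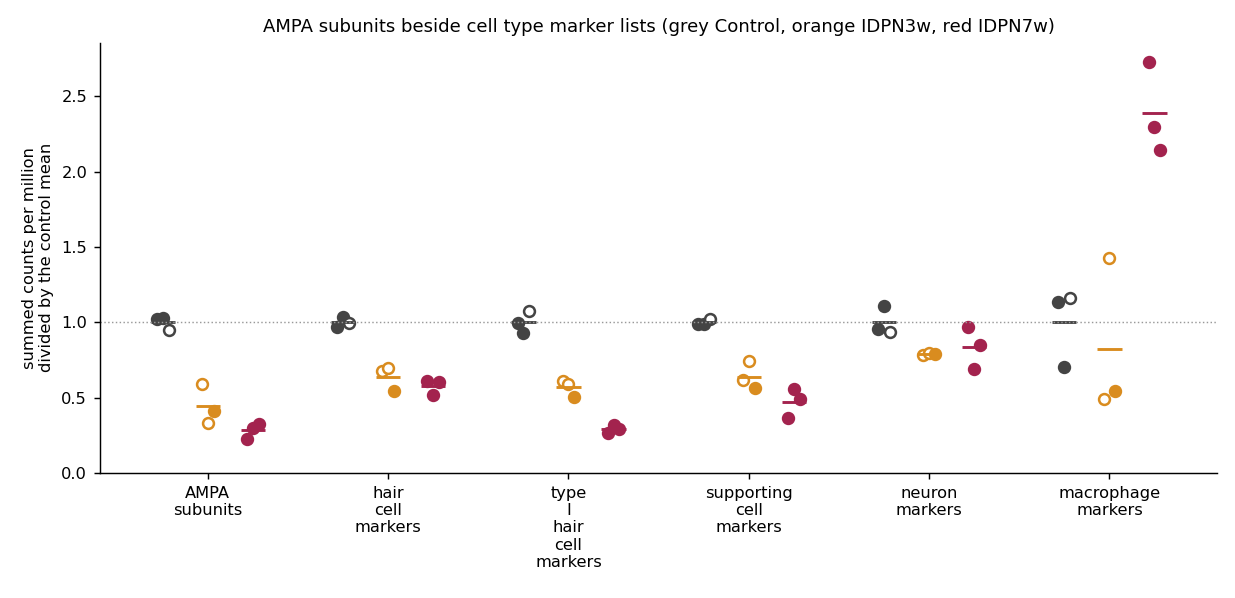
Summed CPM of the AMPA receptor genes and of marker lists of 5 cell types in each library, divided by the mean of the controls, with group means as bars and open points for libraries with fewer detected genes. Sums of AMPA, hair cell, type I hair cell and supporting cell genes lay below all controls in every exposed rat, and macrophage sums lay above all controls in every IDPN7w rat.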

How the data were processed

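Polyadenylated RNA was copied and amplified by SMARTseq2 from vestibular epithelia of 9 rats. The deposited values are expected counts per gene that the authors made with STAR 2.5.3a and RSEM (1.3.0 in the submitters' notes), in whole numbers. The strand of counting is not stated, so overlapping genes on opposite strands are uncertain.

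R 4.3.3 with edgeR 4.0.16 was used: filterByExpr, TMM factors, a robust quasi-likelihood fit of group means (6 residual degrees of freedom, median prior 4.07), 3 contrasts and BH adjustment. The SE is the log2 fold change divided by the root of the F statistic. No replicate was a copy of another of its group (chi-square per gene of at least 18.7), and libraries of different groups were not compared in this way. The pipeline was first run on simulated data with known changes.

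Members and lists were chosen with earlier results of these data known. Genes named by rule are Chrna9 and Chrna10, called genes, the gene of highest mean CPM in each family and the 10 smallest p in each comparison with control, with called partner genes. Others were named after their values were seen. Partner genes Chrng, Shisa9 and Gsg1l and markers Ocm, Pecam1, Dct and Neurod2 had no protein-coding entry and were left out. Alternatives were DESeq2 1.42.0, RLE factors, other count filters (a total of 10, a mean CPM of 1), fits of the compared groups alone, an additive term for the libraries with fewer detected genes, other fold thresholds (2 or none), each library left out, and a fit without the 3 libraries, added after seeing the data.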

Additional observations from a re-analysis of the deposited data

Results flagged for a closer look

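In 3 of the receptor genes tested, every IDPN3w rat lay on the other side of the control mean from every IDPN7w rat. The share of all genes with this pattern is not given, so the count is a description only. P2rx2 was below it in all IDPN3w rats and above it in all IDPN7w rats, with a log2 fold change between the exposures of 0.38 (SE 0.0891, edgeR BH-adjusted p = 0.113). Chrna2, a nicotinic gene, had 2.16, 2.57 and 1.603 CPM in control, 1.88, 1.31 and 2.00 CPM in IDPN3w and 2.44, 2.86 and 3.49 CPM in IDPN7w and lay on the same sides (0.76, adjusted p = 0.531). Chrna9 was above the control mean in all IDPN3w rats and below it in all IDPN7w rats (-0.35, adjusted p = 0.377). None of the 3 differences between exposures passed the test, and their cause was not tested.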

How the results depend on the processing

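At 7 weeks the called genes Gria4, Gria2, Glra3, Grm3 and Grik2 kept a negative log2 fold change in all 16 alternatives, and Gria4, Gria2 and Glra3 were called in each. With an additive term for the libraries with fewer detected genes, Grm3 was at -2.09 (edgeR BH-adjusted p = 0.0910). At 3 weeks the fit of the 2 groups alone lost Gria4 (-1.46, adjusted p = 0.0553). No called result reversed.

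The 2 calls at 3 weeks became 7 with DESeq2, 1 with the compared groups alone, and 0 to 2 when libraries were left out (0 without control replicate 1 or 2, 1 without control replicate 3). Among all genes, the 188 called lower became 563, 97 and 60 to 322 in the same order. The 5 calls at 7 weeks became 8 with DESeq2, 6 with the compared groups alone (Grm7 gained), 4 with the additive term (Grm3 lost), 13 without the 3 libraries with fewer detected genes, and 3 to 6 when libraries were left out (3 without control replicate 2 or IDPN7w replicate 1, 2 or 3). Here the 485 of all genes called lower became 845, 774, 447, 889 and 266 to 590 in the same order. Between exposures the 0 calls became 2 with DESeq2 and 0 to 1 with libraries left out (1 without IDPN3w replicate 3), while the 21 of all genes called lower became 294 and 6 to 230.

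Medians kept their sign. At 3 weeks the -0.28 became -0.14 with DESeq2, -0.15 with a total count of 10 as the only filter, -0.14 with the compared groups alone, -0.12 with the additive term, -0.83 without the 3 libraries, and -0.55 to -0.12 with libraries left out. At 7 weeks the -0.63 became -0.18 with DESeq2 and -0.18 with a total of 10, where all 49 genes entered, -0.84 with a mean CPM of 1, where 26 did, and -0.83 to -0.31 with libraries left out. Between exposures the -0.35 became -0.87 with the additive term, -0.20 without the 3 libraries and -0.51 to -0.15 with libraries left out. With Grin2a at its bound the medians were the same. Why libraries differ in detected genes was not tested.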
